A study of Homo sapiens with 10 samples.

Results

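A-485, an inhibitor of the histone acetyltransferases CBP and p300, was set against AZ-5576, an inhibitor of the pause-release kinase CDK9, in new and in total RNA of K562 cells, a human leukemia line with erythroid and megakaryocytic features. The comparison rests on 4 of the 10 libraries of the series, 2 with A-485 and 2 with AZ-5576, chosen by the drug named in their titles, and on all 59204 human genes listed. Cells of the A-485 group and of the AZ-5576 group received 1 µM of their drug for 2 h, DMSO cells served as the vehicle level, and every group had 100 µM 4-thiouridine in the last 1 h. Libraries of actinomycin D (1 µg/mL) and of JQ1 (1 µM), a BET bromodomain inhibitor, from the same 2 h design entered the fit for the spread between libraries, and actinomycin D also serves for comparison. In this assay (SLAM-seq) 4-thiouridine enters RNA made during the label and shows in sequencing as T-to-C changes. Labelled counts therefore follow new RNA and total counts the mRNA pool. K562 is a single established line, and no source used here says that the 2 libraries of a group came from separate cultures, so p-values measure the spread between libraries, which may be technical. The 11 erythroid markers checked all had at least 50 counts in DMSO, as did 2 of 5 lymphoid, 1 of 5 myeloid and 3 of 6 non-blood markers. EPCAM, an epithelial adhesion protein, had 1003 and 1116 counts in DMSO, and 1 marker of each of these 3 classes was at 0 in the A-485, AZ-5576 and DMSO libraries.

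RNA polymerase II pauses shortly after it starts a gene, and CDK9, the kinase of P-TEFb, releases it into elongation. A CDK9 inhibitor is therefore a broad block on new mRNA. CBP and p300 acetylate histones at enhancers and promoters, and genes under strong enhancers, lineage regulators among them, are known for their dependence on these enzymes. How far an mRNA falls within hours of a block depends also on how fast that mRNA decays, and the direct comparison asks which mRNAs fall as far, or further, with the acetyltransferase inhibitor as with the block on pause release.

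Promoters of 5 of the mRNAs with the largest falls under A-485, among those that fell as far or further, are shown here. Promoters are the regions where polymerase starts and pauses. Each is 300 bases, from 250 before to 50 after the annotated start, from RefSeq on GRCh38.p14, 5′ to 3′ on the strand of the gene, with motif matches on either strand in capitals. ID2, ID3 and ID1 encode inhibitors of helix-loop-helix transcription factors, CISH encodes a feedback inhibitor of JAK-STAT signalling, and SLC40A1 encodes ferroportin, the iron exporter.
ID2, chr2:8681806-8682105, plus strand: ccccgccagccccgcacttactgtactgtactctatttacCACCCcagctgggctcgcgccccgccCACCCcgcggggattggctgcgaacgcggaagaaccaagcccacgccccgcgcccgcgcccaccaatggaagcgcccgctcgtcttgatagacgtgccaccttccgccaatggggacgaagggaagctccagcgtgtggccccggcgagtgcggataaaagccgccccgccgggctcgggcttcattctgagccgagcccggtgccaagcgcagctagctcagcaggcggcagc
ID3, chr1:23559452-23559751, minus strand: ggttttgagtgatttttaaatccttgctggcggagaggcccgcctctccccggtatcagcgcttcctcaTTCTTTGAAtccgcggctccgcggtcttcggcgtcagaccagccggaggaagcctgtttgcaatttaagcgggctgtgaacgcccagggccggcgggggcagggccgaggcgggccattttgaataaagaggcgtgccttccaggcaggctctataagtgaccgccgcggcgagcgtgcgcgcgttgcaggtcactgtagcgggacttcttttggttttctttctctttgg
CISH, chr3:50611725-50612024, minus strand: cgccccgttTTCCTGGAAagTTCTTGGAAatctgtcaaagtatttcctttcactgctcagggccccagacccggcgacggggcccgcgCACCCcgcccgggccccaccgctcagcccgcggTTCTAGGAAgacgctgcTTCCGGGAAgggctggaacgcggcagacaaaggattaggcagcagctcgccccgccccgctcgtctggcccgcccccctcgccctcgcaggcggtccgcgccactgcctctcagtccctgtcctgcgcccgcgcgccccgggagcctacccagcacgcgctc
ID1, chr20:31605039-31605338, plus strand: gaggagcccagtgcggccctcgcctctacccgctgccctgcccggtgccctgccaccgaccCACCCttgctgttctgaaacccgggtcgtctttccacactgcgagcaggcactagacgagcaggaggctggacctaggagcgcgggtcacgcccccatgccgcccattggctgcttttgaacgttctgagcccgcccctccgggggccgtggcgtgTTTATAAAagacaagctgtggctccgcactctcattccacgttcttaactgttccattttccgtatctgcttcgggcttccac
SLC40A1, chr2:189580737-189581036, minus strand: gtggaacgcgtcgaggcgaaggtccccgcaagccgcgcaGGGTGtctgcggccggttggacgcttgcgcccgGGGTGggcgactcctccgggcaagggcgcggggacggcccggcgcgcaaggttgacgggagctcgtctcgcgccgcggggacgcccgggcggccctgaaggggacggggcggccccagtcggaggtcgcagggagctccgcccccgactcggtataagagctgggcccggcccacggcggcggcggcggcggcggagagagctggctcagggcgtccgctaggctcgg

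The motif TTCNNNGAA, the core letters that STAT factors bind, was found 4 times in the CISH window, at positions -241, -230, -129 and -112 from the start, and once in that of ID3. It was present in 7.88% of all 27305 promoters of the table. The ID1 window held TATAAA on each strand, in overlapping letters close before the start. CACCC, the letters that KLF factors bind, was found in the windows of ID2, CISH, ID1 and SLC40A1 and in 58.9% of all promoters. It was in 62.4% of the promoters of genes with at least 50 counts in DMSO. Promoters were matched for 70 genes lower than DMSO with A-485 and at or below the AZ-5576 level, unresolved ones included. CACCC was in 54 of these 70 (77.1%), a description with no test. TTCNNNGAA was in 3 of the 70 (4.29%), against 6.02% for genes with at least 50 counts in DMSO. TATAAA was in 3 (4.29%), against 4.98%. The other motifs searched, the GATA motif (AGATAA, also searched with T as its first letter), the CRE (TGACGTCA), the AP-1 motif (TGANTCA) and the E-box (CACGTG), were found in none of these 5 windows. They were present in 16.6%, 1.98%, 7.76% and 7.43% of all promoters. A match is a description of letters, and no match says nothing of a factor bound elsewhere.

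New RNA of nuclear genes was nearly lost with AZ-5576 and largely kept with A-485. Labelled counts of nuclear genes were 199.9 and 214.9 per 1000 spike-in counts with A-485, against 20.8 and 21.6 with AZ-5576 and 225.5 and 227.8 in DMSO. The A-485 libraries thus lay at 91.5% and the AZ-5576 libraries at 9.35% of DMSO, a 9.78-fold difference between the drugs. Genes of the mitochondrial genome, which a separate polymerase transcribes inside the organelle, gave 9.80 ± 1.03 labelled counts per 1000 spike-in counts with A-485 and 8.61 ± 0.196 with AZ-5576 (SD, n = 2 each), or 88.1% and 77.4% of DMSO. Total human counts were 8.42 ± 0.084 per spike-in count with A-485 and 8.38 ± 0.317 with AZ-5576 (SD, n = 2 each), so the pool as a whole differed by less than the spread between libraries. A permutation of 2 libraries against 2 cannot give a two-sided p below 0.33, and none is given. The spike-in, RNA of Drosophila S2 cells, was added to purified RNA, so these are levels per amount of RNA. A change in cell number, or in all RNA per cell, is divided out on this scale. The near-equal totals therefore say nothing of either.

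**Figure D1:**
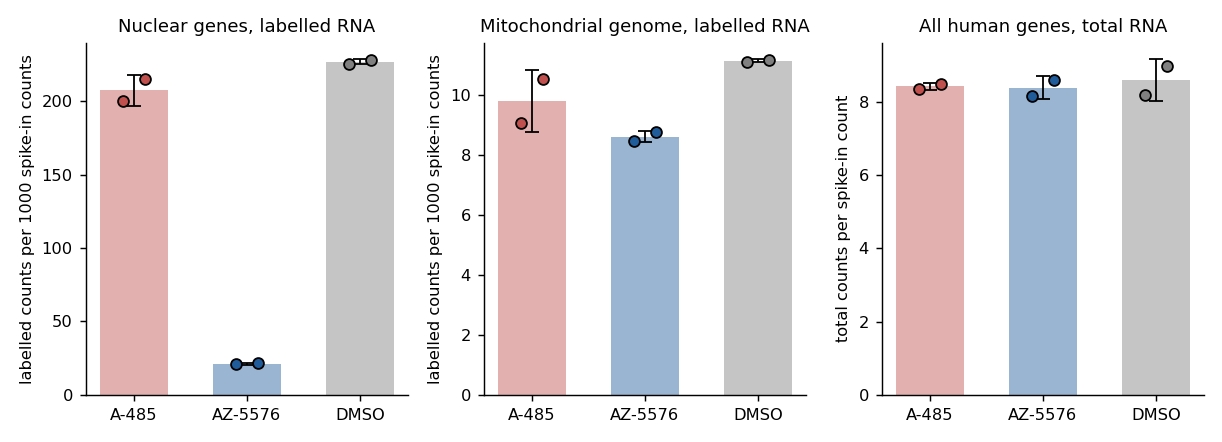
Counts per spike-in count in each library (points) with the group mean (bar) and SD (error bar, n = 2): labelled counts of nuclear genes, labelled counts of the mitochondrial genome, and total counts of all human genes. AZ-5576 stands apart in the first panel at 9.35% of DMSO, and the 3 groups lie close together in the third.

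Behind these ratios stand 411716 and 447455 labelled counts with A-485 and 53503 and 62513 with AZ-5576, on 16470682 and 16825319 total counts with A-485 and 14916671 and 17732216 with AZ-5576. Spike-in counts were 1970307 and 1984482 with A-485, against 1828021 and 2059736 with AZ-5576, so raw counts of a gene can be read across these libraries nearly as they stand. Labelled reads were found for 12483 and 12566 genes with A-485, against 4036 and 4362 with AZ-5576. A labelled level under AZ-5576 therefore often rests on a handful of reads. No library without 4-thiouridine was analysed here, so the part of background T-to-C changes in these reads was not tested; the actinomycin D libraries, which had 4-thiouridine, held 1410 and 1614 labelled counts.

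Gene by gene, labelled RNA was higher with A-485 than with AZ-5576 for nearly every gene. Of 7996 genes tested (edgeR's quasi-likelihood test on counts scaled to the spike-in, adjusted p under 0.05), 7340 were higher (91.8%) and 26 lower (0.325%) with A-485. In 3730 genes the AZ-5576 libraries held 0 labelled counts, so a typical size is best read where A-485 has depth: among 1974 genes with at least 100 labelled counts over the A-485 libraries, the median log2 difference was 5.12 with AZ-5576 set to no fewer than 3 counts over the group. TOMM5, a subunit of the mitochondrial import pore, had 401 and 369 labelled counts with A-485 and 0 and 0 with AZ-5576, at least 252-fold higher on that floor. PEBP1, an inhibitor of RAF kinase signalling, had 305 and 331 with A-485 and 0 and 0 with AZ-5576, at least 208-fold higher. The pool of TOMM5 did not separate the drugs at 2 h. It had 10888 and 10923 total counts with A-485 and 9559 and 11303 with AZ-5576, a log2 difference of 0.04 (SE 0.10, adjusted p = 0.88, 95% interval -0.16 to 0.24). On a scale set by the human genes themselves (TMM), whose factors lower labelled differences by 3.34 on the log2 scale, the labelled calls were 2365 higher and 572 lower. The share of calls that were lower was 0.353% on the spike-in scale and 19.5% on the TMM scale. TMM takes the bulk of genes as unchanged, while labelled RNA was lower with AZ-5576 than DMSO for 94.7% of genes on the spike-in scale.

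The labelled share of each gene, tested as the ratio of labelled to unlabelled counts, was higher in 7260 of 7960 genes with A-485 (91.2%) and lower in 10 (0.126%). In the mitochondrial genome 3 of 11 genes measured were called higher with A-485 in labelled RNA and none lower. MT-CYB, cytochrome b, had 4314 and 4529 labelled counts with A-485 against 3387 and 3810 with AZ-5576, a log2 difference of 0.27 (SE 0.13, adjusted p = 0.039). MT-ATP6 and MT-ND3 differed by 0.33 (SE 0.15) and 0.49 (SE 0.24). Each of these 3 calls ended without a filter on low counts and without either DMSO library, where the differences stayed and the adjusted p was 0.057 to 0.10. Without A-485 replicate 2 MT-CYB stood at 0.24 (adjusted p = 0.15), MT-ATP6 at 0.17 (0.40) and MT-ND3 at 0.38 (0.25), and without AZ-5576 replicate 1 they stood at 0.27 (0.070), 0.27 (0.13) and 0.38 (0.15). MT-CYB was not called either without A-485 replicate 1 (0.30, adjusted p = 0.075) or AZ-5576 replicate 2 (0.27, 0.072), nor MT-ND3 without A-485 replicate 1 (0.59, 0.062). On the TMM scale the labelled differences of all 3 turned negative.

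**Figure D2:**
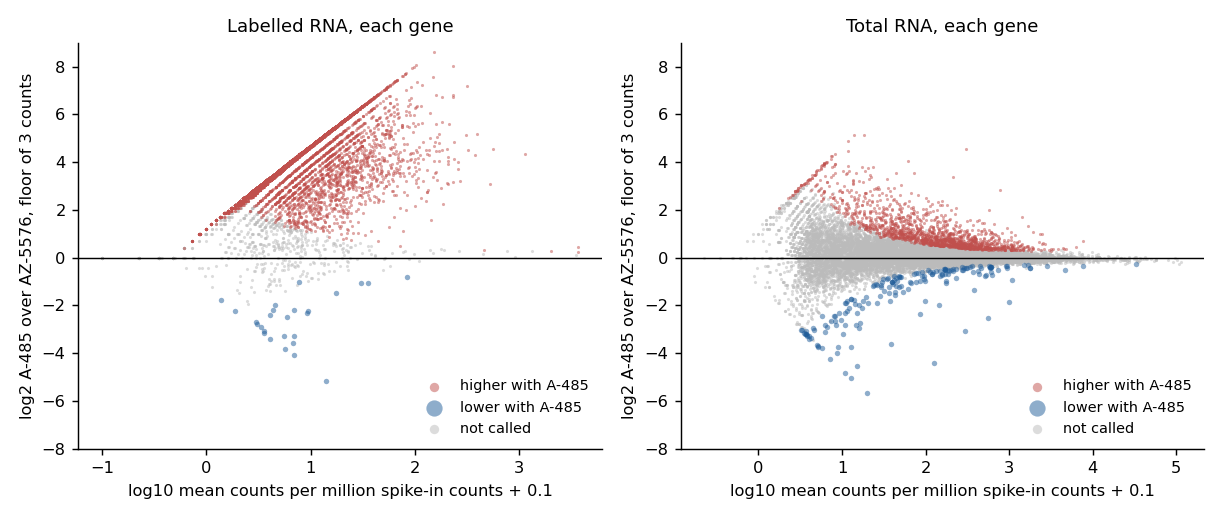
Each point is a gene, with the log2 ratio of summed counts of A-485 over AZ-5576 per spike-in count (no group set below 3 counts) against the log10 mean level; colour gives the edgeR call. In labelled RNA 7340 of 7996 genes are called higher with A-485 and 26 lower, and in total RNA 1581 and 177 of 14572.

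The few genes whose new RNA was lower with A-485 than with AZ-5576 included GATA2, a founding regulator of blood stem and progenitor cells and of early megakaryocytic cells. GATA2 had 59 and 33 labelled counts with A-485, against 80 and 109 with AZ-5576 and 347 and 339 in DMSO. Both A-485 libraries lay below both AZ-5576 libraries, by 1.06 on the log2 scale (SE 0.27, adjusted p = 0.00016), and without A-485 replicate 2 by 0.69 (adjusted p = 0.051). PPP1R18, a regulatory subunit of protein phosphatase 1, had 44 and 34 labelled counts with A-485, against 63 and 95 with AZ-5576 and 166 and 157 in DMSO. Its difference was -1.03 (SE 0.32, adjusted p = 0.0014). ANK1, erythroid ankyrin of the red cell membrane, had 111 and 131 with A-485, against 185 and 226 with AZ-5576 and 204 and 212 in DMSO, a difference of -0.79 (SE 0.24, adjusted p = 0.0012). Neither was called in total RNA: PPP1R18 stood at -0.41 (adjusted p = 0.10), which was called without AZ-5576 replicate 1 (-0.59, 0.011) and with 6 libraries in the fit (-0.41, 0.0023), with no filter (0.0032) and with the replicate number as a block (-0.39, 0.011), and ANK1 at -0.11 (adjusted p = 0.60). Most of the 26 rested on little: only these 3 genes, a pseudogene of profilin (PFN1P2) and an unnamed gene averaged at least 50 labelled counts in the higher group, and PFN1P2 had 2 and 0 with A-485, 57 and 48 with AZ-5576 and 2 and 1 in DMSO, so AZ-5576 stood apart there. In the labelled share, GATA2 (-0.16, adjusted p = 0.67) and PPP1R18 (-0.63, 0.095) were not called between the drugs, and ANK1 was lower with A-485 (-0.70, 0.027). Against DMSO, labelled RNA was lower with A-485 for 4.86% and with AZ-5576 for 94.7% of genes.

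In total RNA far fewer genes separated the drugs, and most of them were lower with AZ-5576 than DMSO. Of 14572 genes tested, 1581 were higher with A-485 than with AZ-5576 (10.8%) and 177 lower (1.21%). Among the 1581, 1195 were called lower than DMSO with AZ-5576 and not with A-485, 31 were lower than DMSO with both drugs, and 350 were called against DMSO with neither. On the TMM scale, which lowers total differences by 0.10 on the log2 scale, the calls were 1283 higher and 553 lower, so that the share of calls that were lower was 10.1% on the spike-in scale and 30.1% on the TMM scale. Leaving out 1 library lowered the calls to as few as 876 higher, without AZ-5576 replicate 1, and 72 lower, without AZ-5576 replicate 2; the counts were 934 and 75 without A-485 replicate 1, 996 and 77 without A-485 replicate 2, and 93 lower without AZ-5576 replicate 1.

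The separation grew with turnover. The 10409 genes with at least 50 total counts in DMSO were divided into 5 equal bins by the percentage of their DMSO reads that carried the label, which is large for mRNAs with fast turnover. The median log2 difference between A-485 and AZ-5576 was -0.06, 0.01, 0.09, 0.20 and 0.45 from the lowest to the highest bin, and in the highest bin the 4 pairings of an A-485 with an AZ-5576 library gave 0.41 to 0.51. Against DMSO the medians were -0.03, -0.04, -0.04, -0.04 and -0.07 with A-485 and 0.02, -0.06, -0.14, -0.27 and -0.56 with AZ-5576. In the highest bin 37.2% of genes were called higher and 1.68% lower with A-485 than with AZ-5576, and in the lowest bin 0.576% and 1.06%. On the TMM scale the medians of the lowest and the highest bin were -0.15 and 0.36, and those of the 2 bins next to the lowest turned to -0.086 and -0.0051.

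**Figure D3:**
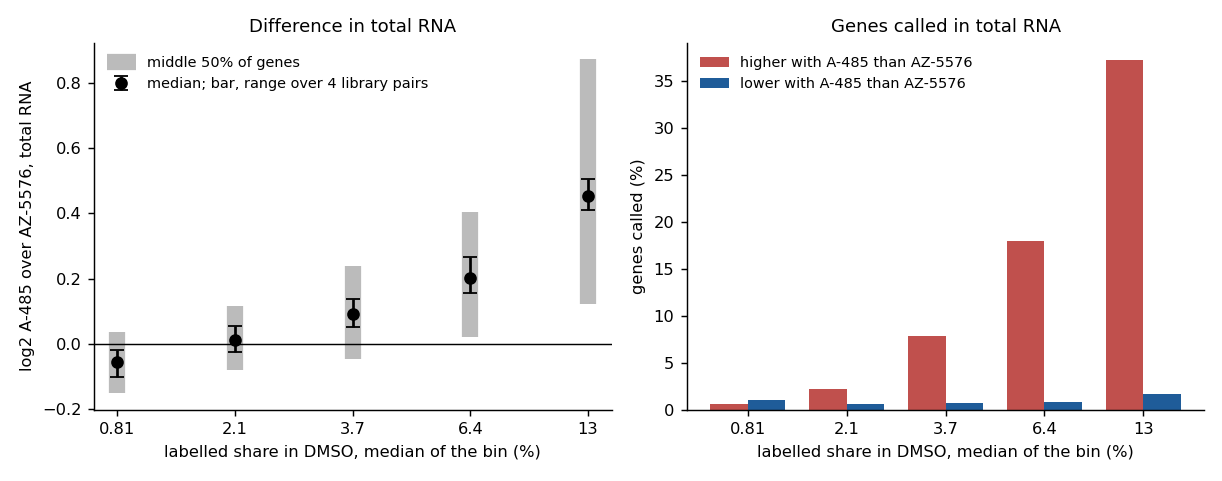
Left, the log2 difference in total RNA between A-485 and AZ-5576 in 5 bins of the labelled share in DMSO (x axis, median of the bin in percent); points are medians, error bars the range over 4 pairings of libraries, grey bars the middle 50% of genes. Right, the percentage of genes called: 37.2% are higher and 1.68% lower with A-485 in the highest bin.

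Against that background stood the mRNAs that A-485 lowered as far as, or further than, the block on pause release. In total RNA 175 genes were lower with A-485 than DMSO (1.2% of genes tested), against 1878 with AZ-5576 (12.9%). Of the 175, 93 (0.638% of genes tested) had a level with A-485 at or below that with AZ-5576, and 82 lay above it. Within the 93, 22 were lower than with AZ-5576 at an adjusted p under 0.05 and are called further, 30 had a 95% interval of the difference within 0.5 on the log2 scale and are called as far, and 41 were not resolved. Choosing genes that are low with A-485 against DMSO favours low A-485 values, so these numbers describe the genes and are no test of a group. Where genes are counted as far or further, all 93 are meant, the 41 not resolved included. Protein-coding genes made up 85 of the 93. Of all 93, 63 were lower than DMSO with AZ-5576 too, and 24 were lower with A-485 even than with actinomycin D, a DNA-binding drug that blocks transcription (0.652% of all genes were). The comparison with actinomycin D was added after the data were seen. In the other direction, 1733 genes lower with AZ-5576 were not called lower with A-485.

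The median labelled share in DMSO was 9.71% for the 91 of these 93 genes with at least 50 total counts in DMSO, 10.3% for the 22 further genes, and 19.2% for the 81 such genes that fell less far with A-485, against 3.71% over all 10409 genes. Genes lower with AZ-5576 than DMSO stood at 10.0%.

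The count of 93 was 45 without DMSO replicate 2 and 51 without A-485 replicate 2, and 141 when only the libraries of A-485, AZ-5576 and DMSO entered the fit. Of the 22 further genes, 7 kept that standing without A-485 replicate 2, 9 without A-485 replicate 1, 10 without AZ-5576 replicate 2, 13 without AZ-5576 replicate 1, 14 without DMSO replicate 2 and 16 without DMSO replicate 1. GATA2, NFE2 and SLC2A3 kept it under all 13 alternatives run. The other further genes included ID2, ID3, CISH, SLC40A1, CASS4, SP6, FAM83D, SEMA7A, ZBTB7B, ZNF467, ICAM5, LPIN1, SAMSN1, DHRS3, RNF24, the noncoding genes SLC44A3-AS1 and PPP1R26-AS1, and 1 unnamed gene.

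GATA2 had 1565 and 1433 total counts with A-485, against 2556 and 3015 with AZ-5576 and 3669 and 3855 in DMSO. The 3 groups did not overlap, and A-485 stood at 37.4% and AZ-5576 at 70.6% of DMSO. The difference between the drugs was -0.92 (SE 0.11, adjusted p = 2.8e-08), the difference of A-485 from DMSO was -1.42 (SE 0.11, adjusted p = 2.7e-12), and GATA2 was also lower than with actinomycin D by 0.46 (adjusted p = 0.0018). NFE2, the blood-specific subunit of the NF-E2 factor that drives globin and platelet genes, had 970 and 926 with A-485, against 1293 and 1568 with AZ-5576 and 2312 and 2335 in DMSO. Its groups did not overlap either, and the difference between the drugs was -0.62 (SE 0.11, adjusted p = 0.00013). Labelled counts of NFE2 were 7 and 5 with A-485, against 18 and 8 with AZ-5576 and 270 and 249 in DMSO, so both drugs left little of it and the difference of -1.13 (SE 0.58, adjusted p = 0.053) was not called. Without AZ-5576 replicate 2 it was -1.68. The labelled difference of NFE2 was called on the TMM scale (-4.45, adjusted p = 1.6e-12). DESeq2 called it on the spike-in scale (-1.15, adjusted p = 0.042) and with its own factors (-4.19, 1.4e-12).

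In the whole list of erythroid and megakaryocytic regulators (32 measured of 38), 13 were lower than DMSO with A-485, where 1.2% of all genes were, and 16 with AZ-5576, where 12.9% were. Between the drugs 4 were higher and 2 lower with A-485, against 10.8% and 1.21% of all genes, so the share that was higher lay near that of all genes. On the TMM scale those were 3 higher and 6 lower. The list's median difference between the drugs was -0.05, against 0.09 over all genes tested. With any unresolved ones counted, 11 members were lower than DMSO with A-485 and at or below the AZ-5576 level, where 0.638% of all genes were. They were GATA1, GATA2, TAL1, LMO2, LYL1, KLF1, NFE2, MAFG, GFI1B, MYB and HHEX. TAL1, the helix-loop-helix partner of GATA1 and LMO2, had 1165 and 1209 with A-485, against 1067 and 1303 with AZ-5576 and 1527 and 1586 in DMSO. The drugs overlapped, at -0.02 with a 95% interval of -0.24 to 0.20. GFI1B, a repressor needed for red cell and platelet formation, differed between the drugs by -0.01 (-0.29 to 0.27). KLF1, the erythroid activator of adult globin genes, gave 914 and 871 with A-485, 999 and 1099 with AZ-5576 and 1569 and 1285 in DMSO, at -0.26 (adjusted p = 0.16), which was called on the TMM scale (-0.36, adjusted p = 0.045).

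GATA1, the master regulator of red cell genes, had 2438 and 2397 with A-485, against 2659 and 3063 with AZ-5576 and 2879 and 3169 in DMSO. Both A-485 libraries lay below the others, and the difference between the drugs was -0.27 (SE 0.10, adjusted p = 0.086), which was called on the TMM scale (-0.36, adjusted p = 0.0014) with only 6 libraries in the fit (adjusted p = 0.048) and with the replicate block (0.014). Its fall against DMSO (-0.42, adjusted p = 0.022) was not called without A-485 replicate 1 (-0.43, 0.24), A-485 replicate 2 (-0.40, 0.45) or DMSO replicate 2 (-0.31, 0.48). MYB, a factor of immature blood cells, had 2005 and 1904 with A-485, against 2160 and 2472 with AZ-5576 and 2526 and 2561 in DMSO, at -0.27 (SE 0.10, adjusted p = 0.083). It was called on the TMM scale (-0.37, adjusted p = 0.0024), with 6 libraries (0.047), with the replicate block (0.017) and by DESeq2 on the spike-in scale (0.049). The fall of MYB against DMSO (-0.47, adjusted p = 0.0057) ended without A-485 replicate 1 (-0.51, 0.078), A-485 replicate 2 (-0.43, 0.32) or DMSO replicate 2 (-0.43, 0.14).

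The opposite order was seen for ZBTB7A, a repressor of fetal globin genes. It had 2768 and 2470 total counts with A-485, against 1391 and 1689 with AZ-5576 and 3604 and 3639 in DMSO, so A-485 lowered it but AZ-5576 lowered it more, by a difference of 0.74 (SE 0.11, adjusted p = 1.6e-06). Its labelled counts were 438 and 463 with A-485, 68 and 62 with AZ-5576 and 755 and 716 in DMSO. Its fall against DMSO with A-485 (-0.56, adjusted p = 0.00082) was not called without A-485 replicate 2 (-0.47, 0.17). HBG1, fetal globin, is made from a stable mRNA and shows how the label and the pool part: 44 and 64 labelled counts with A-485, 15 and 11 with AZ-5576 and 808 and 823 in DMSO, but 26402 and 28674 total counts with A-485, 26656 and 33364 with AZ-5576 and 26080 and 29526 in DMSO. HBG1 shares most of its sequence with HBG2, so its counts may be split between them. Its labelled difference between the drugs was 2.02 (SE 0.34, adjusted p = 1.2e-08), and its total difference was -0.14 (adjusted p = 0.48).

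**Figure D4:**
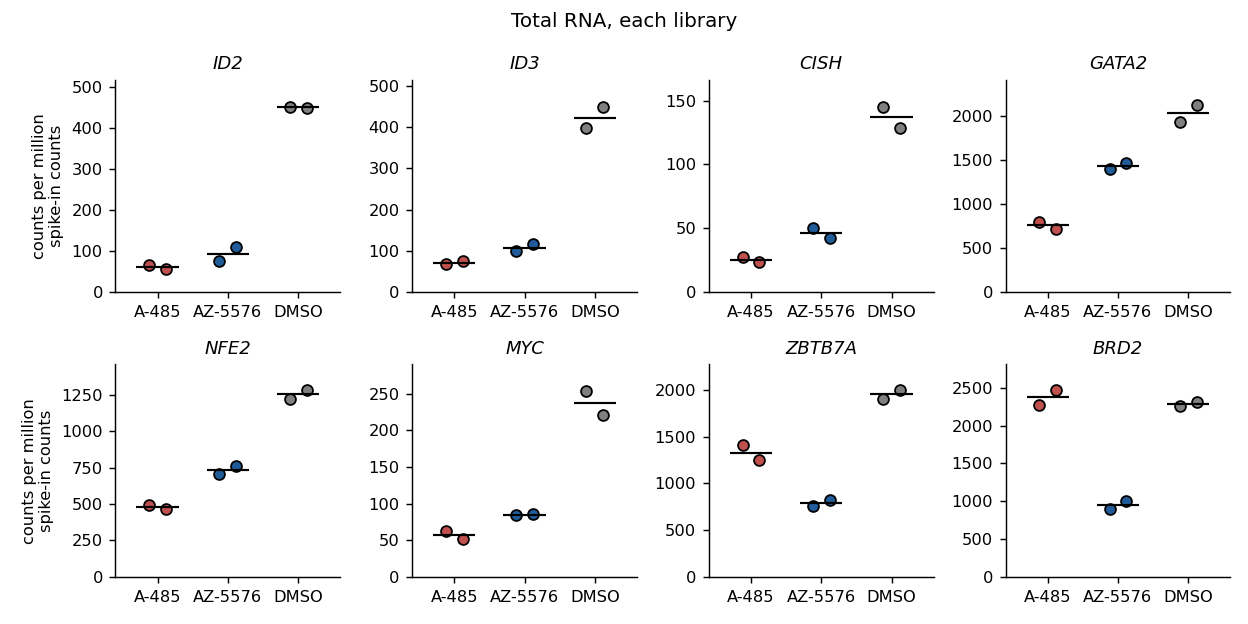
Total RNA of 8 genes as counts scaled to the spike-in, 1 point per library with the group mean as a line. ID2, ID3, CISH, GATA2 and NFE2 are lower with A-485 than with AZ-5576, MYC lies lower without a call (adjusted p = 0.063), and ZBTB7A and BRD2 are higher with A-485 than with AZ-5576.

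The ID genes fell deeply with each drug. ID2 had 133 and 111 total counts with A-485, against 141 and 228 with AZ-5576 and 855 and 817 in DMSO. Both drugs emptied the pool, to 13.7% of DMSO with A-485 and 20.9% with AZ-5576, and the difference of -0.61 (SE 0.18, adjusted p = 0.017) was not called without A-485 replicate 2 (-0.48, 0.22) or AZ-5576 replicate 2 (-0.32, 0.47). ID3 had 133 and 150 with A-485, against 181 and 239 with AZ-5576 and 752 and 815 in DMSO, a difference of -0.59 (SE 0.17, adjusted p = 0.019). It was not called without A-485 replicate 1 (-0.51, 0.18), A-485 replicate 2 (-0.67, 0.055) or AZ-5576 replicate 2 (-0.47, 0.20). ID1 had 206 and 180 with A-485, against 202 and 213 with AZ-5576 and 836 and 802 in DMSO, at -0.13 with a 95% interval of -0.45 to 0.18. With A-485 the 3 genes were also lower than with actinomycin D, ID2 by 1.43 (adjusted p = 4.6e-08), ID1 by 0.80 (0.00013) and ID3 by 0.67 (0.0048) on the log2 scale.

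New RNA of the ID genes differed in its order between the drugs. ID1 had 59 and 48 labelled counts with A-485, against 13 and 3 with AZ-5576 and 258 and 230 in DMSO, a difference of 2.69 (SE 0.41, adjusted p = 1.5e-10). ID2 had 22 and 18 with A-485, against 7 and 6 with AZ-5576 and 250 and 224 in DMSO, a difference of 1.58 (SE 0.51, adjusted p = 0.0025). ID3 had 13 and 5 with A-485, against 19 and 13 with AZ-5576 and 148 and 183 in DMSO, at -0.85 (SE 0.51, adjusted p = 0.10), which was -1.69 (0.030) without A-485 replicate 1 and -1.18 (0.032) without AZ-5576 replicate 2. ID2 thus had more new RNA and a smaller pool with A-485 than with AZ-5576. On the TMM scale the labelled differences of ID1 and ID2 turned negative, at -0.63 and -1.73.

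JAK-STAT and ERK feedback genes (31 measured) divided: 6 were higher and 4 lower with A-485 than with AZ-5576, where 10.8% and 1.21% of all genes were, and the list's median was 0.07, turning to -0.03 on the TMM scale. Against DMSO 12 were lower with A-485 and 17 with AZ-5576, where 1.2% and 12.9% of all genes were. The list also holds ID1, ID2, ID3, SMAD7 and SKIL. ID2 and ID3 are among its 4 lower members and are also the lower calls of the immediate early list. CISH had 54 and 47 with A-485, against 92 and 87 with AZ-5576 and 275 and 234 in DMSO, with no overlap between groups and a difference of -0.85 (SE 0.26, adjusted p = 0.025). That call was lost without A-485 replicate 1 (-0.96, 0.079), A-485 replicate 2 (-0.75, 0.20) or AZ-5576 replicate 1 (-0.72, 0.20). Its labelled counts ran the other way, 15 and 12 with A-485, 1 and 8 with AZ-5576 and 121 and 122 in DMSO, a difference of 1.54 (SE 0.65, adjusted p = 0.019) that was 1.37 (0.098) without A-485 replicate 1 and 0.80 (0.21) without AZ-5576 replicate 1. It turned to -1.75 on the TMM scale.

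PIM1, a survival kinase induced by STAT5, had 411 and 420 with A-485, against 1059 and 1040 with AZ-5576 and 1401 and 966 in DMSO. A-485 lay below the AZ-5576 and DMSO libraries. Raw counts with AZ-5576 lay within the range of DMSO, but scaled to the spike-in AZ-5576 replicate 2 lay below both DMSO libraries. The difference between the drugs was -1.37 (SE 0.30, adjusted p = 0.033). PIM1 was not counted among the 93, since its fall against DMSO was not called (-1.60, adjusted p = 0.093). That fall was called by DESeq2 on the spike-in scale (adjusted p = 0.00015) and with its own factors (0.0023), and by edgeR with no filter (1.3e-17), with 6 libraries (3.2e-15) and with the replicate block (0.032). The difference between the drugs was not called on the TMM scale (-1.47, 0.059) or without A-485 replicate 1 (-1.36, 0.18), A-485 replicate 2 (-1.38, 0.17), AZ-5576 replicate 1 (-1.26, 0.17) or AZ-5576 replicate 2 (-1.46, 0.11). SOCS2, another STAT5-induced feedback gene, gave 435 and 384 with A-485, 351 and 453 with AZ-5576 and 704 and 737 in DMSO, a difference of 0.01 (-0.30 to 0.32). PIM3, a related kinase, was kept with A-485, at 1400 and 1513, against 464 and 581 with AZ-5576 and 1793 and 1821 in DMSO (difference 1.46, SE 0.11, adjusted p = 3.2e-12).

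MYC, the growth regulator, had 124 and 104 total counts with A-485, against 155 and 176 with AZ-5576 and 481 and 402 in DMSO. A-485 left 24.3% and AZ-5576 35.9% of the DMSO level without overlap, and the difference of -0.56 (SE 0.20, adjusted p = 0.063) missed the threshold. It passed on the TMM scale (-0.66, 0.031) with 6 libraries in the fit (-0.56, 0.035), with the replicate block (-0.57, 0.038) and by DESeq2 with its own factors (-0.66, 0.039). Labelled counts of MYC were 7 and 19 with A-485, 7 and 9 with AZ-5576 and 109 and 108 in DMSO, a difference of 0.67 (SE 0.60, adjusted p = 0.27). The few reads leave that difference unresolved, and on the TMM scale it turned to -2.65.

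Membrane transporters were also among the further genes. SLC2A3, the glucose transporter GLUT3, had 660 and 716 with A-485, against 874 and 1121 with AZ-5576 and 1130 and 1237 in DMSO, at -0.56 (SE 0.12, adjusted p = 0.0011). SLC40A1 had 66 and 38 with A-485, against 85 and 124 with AZ-5576 and 194 and 188 in DMSO, at -1.02 (SE 0.28, adjusted p = 0.011), a call lost without A-485 replicate 2 (-0.67, 0.27) or AZ-5576 replicate 2 (-0.82, 0.15). SLC2A3 was the 1 lower of 19 in glycolysis, where 1 was higher; on the TMM scale 5 of that list were lower and none higher.

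Immediate early and other short-lived mRNAs were the list where most members fell with each drug, and most often further with AZ-5576. Of 44 measured, 24 were lower than DMSO with A-485 and 40 with AZ-5576, and 22 were higher and 2 (ID2 and ID3) lower with A-485 than with AZ-5576 (20 and 4 on the TMM scale). Over all genes these shares were 1.2% and 12.9% lower than DMSO, and 10.8% higher and 1.21% lower between the drugs. The list's median difference was 0.98. IER3, a stress-induced survival gene, had 306 and 293 with A-485, against 125 and 192 with AZ-5576 and 964 and 913 in DMSO (0.90, SE 0.16, adjusted p = 7.8e-05). MCL1, a BCL2-family survival protein with a short half-life, had 1841 and 1927 with A-485, against 936 and 1247 with AZ-5576 and 2287 and 2425 in DMSO, a difference of 0.77 (SE 0.11, adjusted p = 1.7e-06). Its labelled counts were 134 and 181 with A-485, 3 and 5 with AZ-5576 and 220 and 152 in DMSO. JUN, a subunit of AP-1, had 111 and 96 with A-485, against 45 and 72 with AZ-5576 and 273 and 288 in DMSO (0.80, adjusted p = 0.025), not called on the TMM scale (0.71, 0.053) or without A-485 replicate 1 (0.69, 0.20) or AZ-5576 replicate 1 (0.58, 0.30). With unresolved ones counted, 10 members were lower than DMSO with A-485 and at or below the AZ-5576 level, where 0.638% of all genes were. They were MIDN, KLF10, MYC, GADD45A, BHLHE40, PER1, ID1, ID2, ID3 and KDM6B, of which MYC was not resolved.

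The transcripts that AZ-5576 lost and A-485 did not were led by MIR17HG, the noncoding host of the miR-17 microRNAs. Its total and labelled counts with A-485 lay above those in DMSO. MIR17HG had 1212 and 1071 total counts with A-485, against 33 and 63 with AZ-5576 and 800 and 838 in DMSO, a difference of 4.55 (SE 0.18, adjusted p = 5.2e-21), and 589 and 578 labelled counts with A-485, against 3 and 3 with AZ-5576 and 464 and 477 in DMSO. KRAB and other zinc finger genes held 36 of 67 higher and none lower with A-485 (32 and none on the TMM scale), with a median of 0.88, the highest share of any list. Over all genes 10.8% were higher and 1.21% lower. Of the zinc finger genes 1 was lower than DMSO with A-485 and 36 with AZ-5576, against 1.2% and 12.9% of all genes. ZNF627 had 130 and 195 with A-485, against 4 and 23 with AZ-5576 and 172 and 151 in DMSO (3.57, SE 0.37, adjusted p = 8.9e-09). ZNF304 had 69 and 83 with A-485, against 7 and 4 with AZ-5576 and 58 and 82 in DMSO (3.73, SE 0.53, adjusted p = 2.0e-06).

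Some genes of the transcription machinery fell with AZ-5576, and none of the listed ones with A-485. In the list of acetyltransferases, BET proteins and pause release 13 of 39 were higher and none lower with A-485, where 10.8% and 1.21% of all genes were. None was lower than DMSO with A-485 and 13 were with AZ-5576, against 1.2% and 12.9% of all genes. BRD2, a BET protein, had 4474 and 4913 with A-485, against 1649 and 2063 with AZ-5576 and 4293 and 4203 in DMSO, a difference of 1.32 (SE 0.10, adjusted p = 4.1e-12). HEXIM1, the inhibitor of P-TEFb, had 989 and 891 with A-485, against 540 and 645 with AZ-5576 and 833 and 952 in DMSO (0.64, SE 0.13, adjusted p = 0.00042). EP300, which encodes p300, had 1309 and 1428 with A-485, against 888 and 1157 with AZ-5576 and 1235 and 1360 in DMSO, at 0.40 (SE 0.12, adjusted p = 0.018), not called without A-485 replicate 1 (0.46, 0.055), A-485 replicate 2 (0.34, 0.20) or AZ-5576 replicate 1 (0.30, 0.28). CREBBP, which encodes CBP, had 422 and 412 with A-485, against 259 and 312 with AZ-5576 and 353 and 409 in DMSO, at 0.52 (SE 0.15, adjusted p = 0.019), not called without A-485 replicate 1 (0.50, 0.13), A-485 replicate 2 (0.55, 0.088), AZ-5576 replicate 1 (0.48, 0.16) or AZ-5576 replicate 2 (0.57, 0.069). CDK9 had 21 and 43 with A-485, against 19 and 19 with AZ-5576 and 27 and 29 in DMSO, too few to separate the drugs (0.72, adjusted p = 0.42). Of polymerase and Mediator genes 13 of 42 were higher and none lower (10 and 2 on the TMM scale), set against the same shares of all genes.

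Growth and stress lists, read against 10.8% higher and 1.21% lower over all genes, leaned the same way in part. Of MYC targets and ribosome biogenesis genes 14 of 46 were higher and none lower, of mRNA decay factors 14 of 64 and none, of S phase genes 9 of 46 and none, of integrated stress and unfolded protein genes 7 of 26 and none, and of p53 targets 6 of 25 and none; on the TMM scale no member of these lists was lower. TAF1D, a subunit of the polymerase I factor SL1, had 4227 and 4335 with A-485, against 1106 and 1454 with AZ-5576 and 3508 and 3673 in DMSO (1.72, SE 0.11, adjusted p = 3.5e-15). ATF4, an activator of amino acid and stress genes, had 4993 and 5469 with A-485, against 2146 and 2750 with AZ-5576 and 4204 and 5041 in DMSO (1.08, SE 0.12, adjusted p = 2.5e-07). Fewer calls came from mitosis (5 higher and 1 lower of 44), BCL2 family and apoptosis (3 and none of 24), NF-kB (2 and none of 19), heat shock (1 and none of 25), histones (1 and none of 15), respiratory chain (1 and none of 64), and globin, heme and red cell membrane (1 and 1 of 43). On the TMM scale the lower calls were 9 for globin, heme and red cell membrane, 5 for the respiratory chain, 2 each for mitosis and the BCL2 family, 1 each for NF-kB and heat shock, and none for histones. Against 10.8% of all genes higher, none of these lists stood far above.

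**Figure D5:**
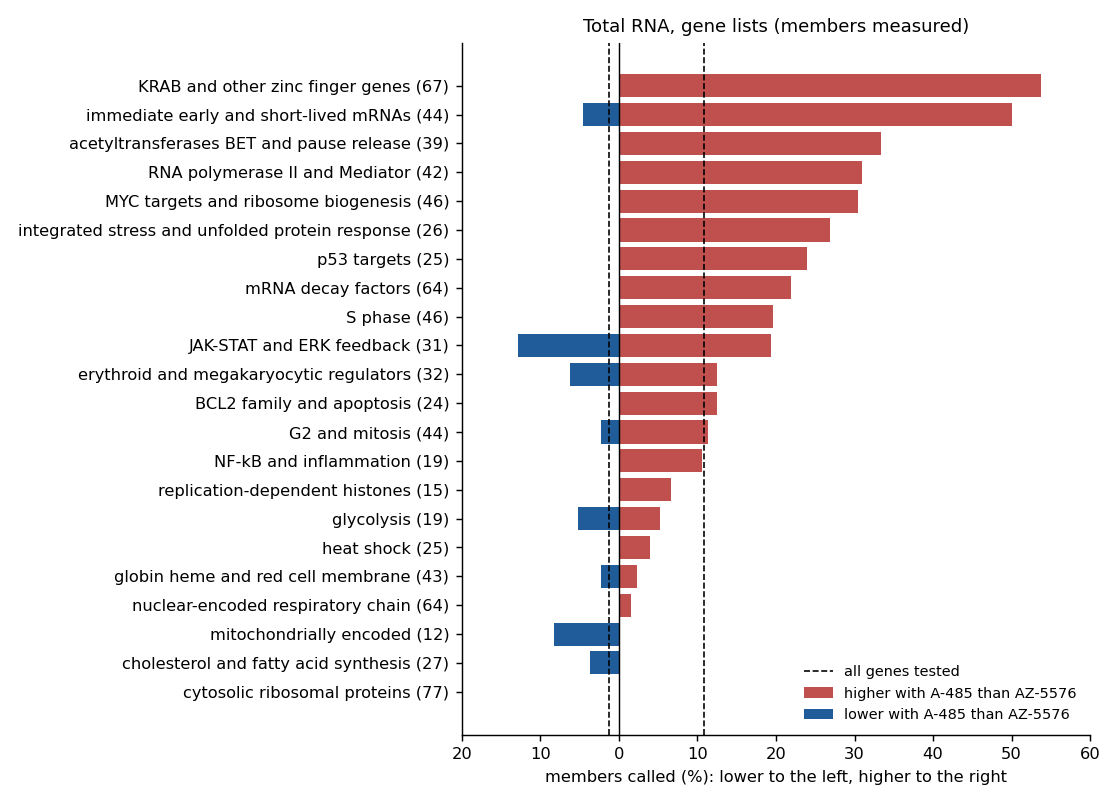
Percentage of the measured members of 22 gene lists called higher (right) or lower (left) with A-485 than with AZ-5576 in total RNA, with the number measured in brackets; dashed lines mark the percentages over all genes tested, 10.8 and 1.21. Zinc finger and immediate early genes lead on the right, and JAK-STAT and ERK feedback genes hold the largest percentage on the left. That list shares ID2 and ID3 with the immediate early list.

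Abundant housekeeping mRNAs separated the drugs little at 2 h. Of 77 cytosolic ribosomal protein genes 0 were called in total RNA, though 8 were lower and none higher on the TMM scale, while 75 of 75 measured were higher with A-485 in labelled RNA. GAPDH, a glycolytic enzyme, had 38428 and 42577 total counts with A-485, against 39117 and 48405 with AZ-5576 and 38875 and 41400 in DMSO, a difference of -0.13 (SE 0.10, adjusted p = 0.49) that was called on the TMM scale (-0.23, 0.038), and 202 and 210 labelled counts with A-485 against 4 and 7 with AZ-5576 and 279 and 261 in DMSO. Of 12 mitochondrially encoded genes none was higher and 1 lower (7 lower on the TMM scale). It was MT-ND4, a subunit of complex I, at 60548 and 59065 with A-485, against 65035 and 75816 with AZ-5576 and 60705 and 57502 in DMSO, a difference of -0.26 (adjusted p = 0.049), not called without any 1 of the A-485 or AZ-5576 libraries (-0.28, -0.24, -0.28 and -0.23).

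Of the 177 genes lower with A-485 than with AZ-5576 in total RNA, only 22 were lower than DMSO with A-485, 73 were higher than DMSO with AZ-5576 (0.782% of all genes were), and 82 were called against DMSO with neither drug. By class, 98 of 11268 protein coding genes (0.870%), 24 of 1300 pseudogenes (1.85%), 15 of 113 small RNAs (13.3%) and 40 of 1726 long noncoding and other genes (2.32%) were lower with A-485. In 85 of the 177 labelled RNA was measured, and there 33 were higher, 17 lower and 35 not called with A-485. MALAT1, an abundant nuclear noncoding RNA, was of the first kind: 13147 and 13458 total counts with A-485, against 16182 and 17415 with AZ-5576 and 16078 and 14646 in DMSO (-0.36, SE 0.10, adjusted p = 0.015), but 198 and 264 labelled counts with A-485, against 7 and 15 with AZ-5576 and 575 and 527 in DMSO. The total difference of MALAT1 was not called without A-485 replicate 1 (-0.35, 0.14), A-485 replicate 2 (-0.38, 0.11), AZ-5576 replicate 1 (-0.33, 0.15) or AZ-5576 replicate 2 (-0.40, 0.053).

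The largest differences in that direction came from genes that rose with AZ-5576. RPL34P6, a processed pseudogene of a ribosomal protein, had 134 and 117 total counts with A-485, against 981 and 1075 with AZ-5576 and 136 and 103 in DMSO (-3.06, SE 0.14, adjusted p = 3.7e-19). RPS3P1, another, had 293 and 357 with A-485, against 1695 and 2033 with AZ-5576 and 350 and 261 in DMSO (-2.54, SE 0.13). RNU6-918P, a copy of the U6 small nuclear RNA, had 1 and 2 with A-485, against 83 and 68 with AZ-5576 and 1 and 2 in DMSO. These genes share sequence with near-identical copies, so it is uncertain which copy, or which neighbouring transcript, gave the reads. HBB, adult beta globin, had 5 and 3 total counts with A-485, against 35 and 21 with AZ-5576 and 4 and 4 in DMSO, a small number in each library and a call (-2.81, adjusted p = 0.018) lost without A-485 replicate 1 (-3.22, 0.076), A-485 replicate 2 (-2.50, 0.16) or AZ-5576 replicate 1 (-2.30, 0.19).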

How the data were processed

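Per the file headers the deposited tables hold raw counts per gene for each library: all human reads, human reads with T-to-C changes (labelled), and Drosophila reads. Per the labels' protocols 5% of S2 cell RNA was added to the purified RNA, and libraries were 3′ QuantSeq. The submitters' processing notes name Trim Galore 0.6.5, bedtools and bcl2fastq 2.17.1.14, with hg38 and dm6 as builds. Which aligner and conversion caller were used is not given in the sources used here. Nor is the strand setting, so genes with an antisense partner are uncertain.

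The deposited counts were tested with edgeR 4.0.16 in R 4.3.3 (quasi-likelihood, two-sided), each library scaled by its spike-in sum. All 10 libraries entered the fit, which left 5 residual degrees of freedom, and a gene needed 10 counts in 2 libraries. Adjusted p are Benjamini-Hochberg values over all genes tested, from edgeR unless DESeq2 is named. The biological coefficient of variation was 24.8% in labelled and 10.9% in total RNA. Differences are log2, first-named minus second-named group. Tested on simulated data for A-485 against AZ-5576, the labelled test found 6% of 2-fold and 65% of 4-fold changes among 8296 genes. The total test found 69% and 94% among 14545, and 7 and 9 unchanged genes were called. The simulation gave AZ-5576 the mean counts of A-485 before changes were added, and gave all genes the same spread. Real labelled counts with AZ-5576 were far lower, so the labelled recovery does not describe that comparison. Fold bounds use a floor of 3 counts over a group and cover counting error only. Alternatives were TMM scaling, DESeq2 1.42.0 (spike-in or own size factors), no filter or 50 counts, 6 libraries, and the replicate number as a block. Each A-485, AZ-5576 and DMSO library was also left out in turn, but no JQ1 or actinomycin D library was.

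Genes were named by a rule. It took a panel of regulators and housekeeping genes. It took the 10 largest differences each way in labelled and in total RNA, at a mean of 50 counts without overlap. Next came the 10 largest falls among genes called further or as far, unresolved ones left out, at a mean of 50 counts in DMSO. Overlap between libraries was allowed for these falls. Last came up to 4 called members of each of 22 lists, and 5 genes lower in total but higher in labelled RNA. MT-ATP6, MT-ND3 and HBB, and those further genes and list members outside the rule, were named after their values were seen. The members and lists were chosen with earlier results of these data known. Of the list symbols, 7 were not matched and are not analysed here. Promoters were matched for 70 of the 93 as-far-or-further genes. Some results are not reported here.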

Additional observations from a re-analysis of the deposited data

How the results depend on the processing

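With TMM the labelled calls for A-485 against AZ-5576 were 2365 higher and 572 lower, the labelled share 1739 and 468, total RNA lower 553, and genes lower with AZ-5576 than DMSO 2084 in labelled and 1210 in total RNA. With DESeq2's own size factors these were 2408 and 486 in labelled RNA, 479 lower in total RNA, and 2705 and 1100 lower with AZ-5576 than DMSO. List members called were 60 and 59 lower in total RNA with TMM and with DESeq2's own factors, and in labelled RNA 263 and 288 higher and 67 and 59 lower. The labelled difference between A-485 and AZ-5576 turned negative with TMM and DESeq2's own factors for ID1 (-0.63 and -0.33), ID2 (-1.73 and -1.45), CISH (-1.75 and -1.47), MYC (-2.65 and -2.38), MT-CYB (-3.07 and -2.77), MT-ND3 (-2.85 and -2.56), MT-ATP6 (-3.02 and -2.72), HBG1 (-1.32 and -1.02) and ZBTB7A (-0.58 and -0.28). The bin medians with TMM were -0.15, -0.086, -0.0051, 0.10 and 0.36, and with a minimum of 200 counts the 2 highest bins stood at 0.15 and 0.35.

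With at least 50 counts in 2 libraries, where fewer genes are tested, labelled calls were 2277 higher and 6 lower, the labelled share 2275 and 4, genes lower with AZ-5576 than DMSO 2336, and list members higher in labelled RNA 376. With no filter 4 list members were lower in labelled RNA. Leaving out mitochondrial genes raised the labelled ratio of A-485 over AZ-5576 to 9.78, against 7.29 with them. With 6 libraries in the fit, 141 genes were as far or further. Replicate numbers were not shown to pair the libraries (correlation of deviations between A-485 and AZ-5576 of 0.16 in total and -0.03 in labelled RNA). With the replicate number as a block, total calls were 1925 higher and 276 lower, labelled calls 7289 and 24, the labelled share 7218 and 12, list members lower in total RNA 23, and as-far-or-further genes 146.

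Leaving out each library in turn gave, for A-485 against AZ-5576, 876 to 1514 higher and 72 to 159 lower in total RNA and 17 to 28 lower in labelled RNA. Genes as far or further ranged over 45 to 104, genes lower than DMSO over 71 to 185 with A-485 and 903 to 1720 with AZ-5576 in total RNA, and over 191 to 443 with A-485 in labelled RNA. List members ranged over 96 to 144 higher and 5 to 11 lower in total RNA and 1 to 4 lower in labelled RNA. Only libraries of A-485, AZ-5576 and DMSO were left out in these runs. Depth limits labelled values under AZ-5576, where 3730 of 7996 genes tested had 0 counts.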
